A study of Mus musculus with 14 samples.

Results

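The genes described here are the nuclear genes for the structural subunits of the mitochondrial respiratory chain and of ATP synthase in mouse. They were chosen by name from the protein-coding genes of GENCODE M21: symbols that start with Ndufa, Ndufb, Ndufc, Ndufs or Ndufv and a digit, with Uqcr, with Cox4 to Cox8 or with Atp5, together with Sdha, Sdhb, Sdhc, Sdhd and Cyc1. The rule gave 86 genes of 35519 in the deposited files. By symbol, 37 were placed in complex I, 4 in complex II, 9 in complex III, 18 in complex IV and 18 in complex V, the ATP synthase. Atp5o is annotated under 2 gene IDs, and the copy ENSMUSG00000116933.1 was listed at 0 in every library.

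The study is titled as a knockout-first model of H3f3a, one of the 2 genes that encode the histone variant H3.3, and compared wild-type (WT) with knockout (KO) cells. Independent primary lines were made from mouse embryos at stage E13.5, with neurospheres, which are floating cultures of neural stem and precursor cells, grown from the head and mouse embryonic fibroblasts (MEFs) from the body after the internal organs had been taken out. Of the MEF lines 3 were WT and 5 KO, and of the neurosphere lines 3 were of each genotype; none was treated. Each gave 1 library of the QuantSeq 3′ kit, which reads the 3′ end of polyadenylated RNA. The labels name no strain, allele, sex or parent embryo, and say neither whether neurosphere and MEF lines shared embryos nor what the H3f3a allele is on either chromosome.

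Between 1669893 and 3296519 counts per library fell in genes. H3f3a was between 847 and 1427 CPM (counts scaled to a common library size) in WT MEFs and between 7.29 and 18.8 CPM in KO MEFs. In neurospheres its range was 1969 to 2417 CPM in WT and 26.2 to 70.9 CPM in KO lines. The labels of the cell types were matched by their markers: the summed level of 8 fibroblast markers was 13572 to 21684 CPM in MEFs and 3.72 to 70.8 CPM in neurospheres, and that of 8 neural stem markers was 76.8 to 177 CPM in MEFs and 5568 to 9980 CPM in neurospheres. Markers of macrophages and blood summed to 12.6 to 142 CPM in MEFs and to at most 2.34 CPM in neurospheres, where 4 of the 6 were at 0. All values are from cultures, so fewer cells of a type and less RNA per cell cannot be told apart.

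The respiratory chain carries electrons from NADH (complex I) and succinate (complex II) through complex III to oxygen at complex IV, and the proton gradient that complexes I, III and IV build drives ATP synthesis by complex V. Complexes I, III, IV and V mix nuclear-encoded subunits with a few that the mitochondrial genome encodes, whereas complex II is wholly nuclear-encoded. Several complex IV and complex V subunits come as isoforms from different genes, and some of these isoforms are best known from heart and skeletal muscle.

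Together the 86 genes held a larger share of all counts in neurospheres than in MEFs. The share was 0.931%, 0.941% and 1.05% in the WT MEF lines and 1.24%, 1.55% and 1.93% in the WT neurosphere lines. It was 0.885%, 0.865%, 0.941%, 0.939% and 1.03% in the KO MEF lines and 0.945%, 1.36% and 1.82% in the KO neurosphere lines. All WT neurosphere lines lay above all WT MEF lines, whereas the lowest KO neurosphere line lay within the range of the KO MEF lines. The mean share was 0.975% ± 0.068 (SD, n = 3) in WT MEFs, 0.933% ± 0.065 (SD, n = 5) in KO MEFs, 1.57% ± 0.35 (SD, n = 3) in WT neurospheres and 1.37% ± 0.44 (SD, n = 3) in KO neurospheres. The neurosphere mean was thus 1.61 times the MEF mean in WT and 1.47 times in KO cells.

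By complex, the ratio of the WT neurosphere to the WT MEF share was 1.70 for complex I, 1.65 for complex II, 1.61 for complex III, 1.73 for complex IV and 1.49 for complex V. In KO cells these ratios were 1.63, 1.53, 1.48, 1.50 and 1.34 in the same order. The complexes thus differed little from one another, and complex V had the lowest ratio in both genotypes. For scale, the 13 mRNAs of the mitochondrial genome took 5.84% ± 0.27 (SD, n = 3) of counts in WT MEFs and 14.5% ± 2.0 (SD, n = 3) in WT neurospheres, and 5.59% ± 0.20 (SD, n = 5) and 15.1% ± 1.2 (SD, n = 3) in KO cells. Cytosolic ribosomal protein genes went the other way, with 5.89% in WT MEFs, 3.18% in WT neurospheres, 6.04% in KO MEFs and 3.39% in KO neurospheres.

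**Figure D1:**
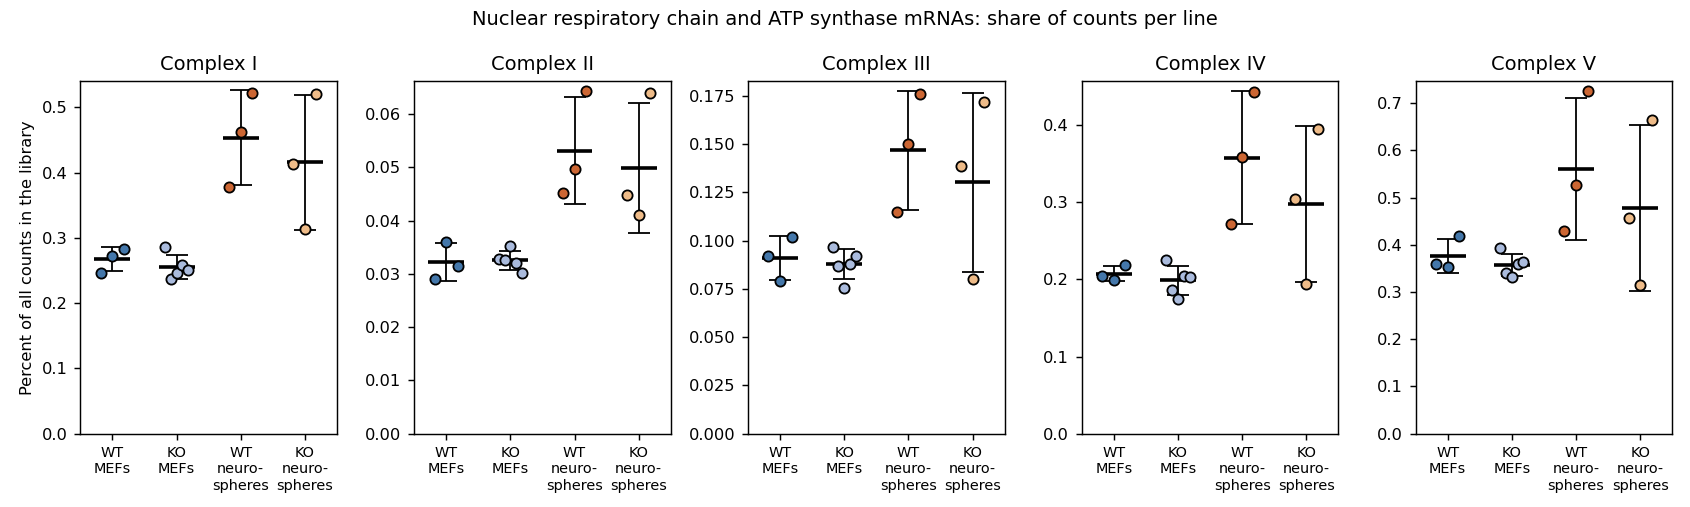
Percent of all counts in a library taken by the nuclear genes of each complex (vertical axis, starting at 0 and with its own scale in each panel), by cell type and genotype (horizontal axis). Points are lines, thick bars are means and error bars are SDs; the neurosphere lines spread more widely than the MEF lines, and the lowest KO neurosphere line lies within the KO MEF range for complexes III and IV and under it for complex V.

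Relative to the genes of the mitochondrial genome, the nuclear genes were the smaller part in both cell types. Mitochondrially encoded mRNAs had 6.02 ± 0.63 (SD, n = 3) counts per count in the 86 nuclear genes in WT MEFs and 6.00 ± 0.32 (SD, n = 5) in KO MEFs. The ratio was 9.33 ± 0.91 (SD, n = 3) in WT neurospheres and 12.0 ± 4.8 (SD, n = 3) in KO neurospheres, where the lines ran from 7.63 to 17.1. No neurosphere line had a ratio as low as the highest MEF line, at 6.60.

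To find which subunits differed between the cell types, neurospheres were compared with MEFs within each genotype by edgeR's quasi-likelihood test over all genes that passed a filter on low counts, with Benjamini-Hochberg adjustment, and a gene was called at an adjusted p under 0.05. In WT cells 80 of the 86 members were tested and 28 were called higher in neurospheres (35.0%, against a background of 20.8% of all 11084 genes tested), and 0 were called lower (background 20.8%). Cox8b and Cox6a2, counted among the 28, passed the filter only through the neurosphere lines, so their calls could hardly have gone the other way. In KO cells 77 members were tested, of which 26 were called higher (33.8%, background 25.4% of 11417 genes) and 1 was called lower (1.30%, background 26.1%). The share called higher was therefore somewhat above the background in WT and nearer to it in KO cells, while calls of the opposite direction, as frequent as the others over all genes, were nearly missing. With an unadjusted p under 0.05, 42 members passed in WT cells (background 51.2%), 1 of them (Atp5g1) lower in neurospheres, and 32 passed in KO cells (background 57.4%), Atp5g1 again the 1 that was lower. Of the members tested, 73 in WT and 67 in KO cells had a log2 difference above 0, where 50.7% and 49.5% of all genes tested did. In both directions together 41.6% of all genes were called in WT and 51.5% in KO cells, above the members' share in each. The lines of the cell types did not overlap in WT cells for 39 members that were higher (background 28.2%) and 1 lower (background 28.9%, both directions 57.1%), and in KO cells for 21 higher (background 24.2%) and 0 lower (background 25.6%, both directions 49.8%). Cox8b and Cox6a2 are among the 39 as well, and their separation too could hardly have gone the other way. Earlier results of these data set 4 lines apart from their groups: WT MEF line 2, KO MEF line 3, WT neurosphere line 2 and KO neurosphere line 3. Without them 21 of 80 members were called higher and 0 lower in WT cells (background 21.4% higher), and 18 of 78 higher and 3 lower in KO cells (background 28.2% higher), so in KO cells the members' share then lay below the background. The median log2 difference of the members was 0.61 in WT and 0.48 in KO cells, beside 0.02 and -0.02 over all genes tested. The KO median was 0.19 without KO neurosphere line 3 and 0.15, with 53 of 78 members positive, without the 4 lines.

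**Figure D2:**
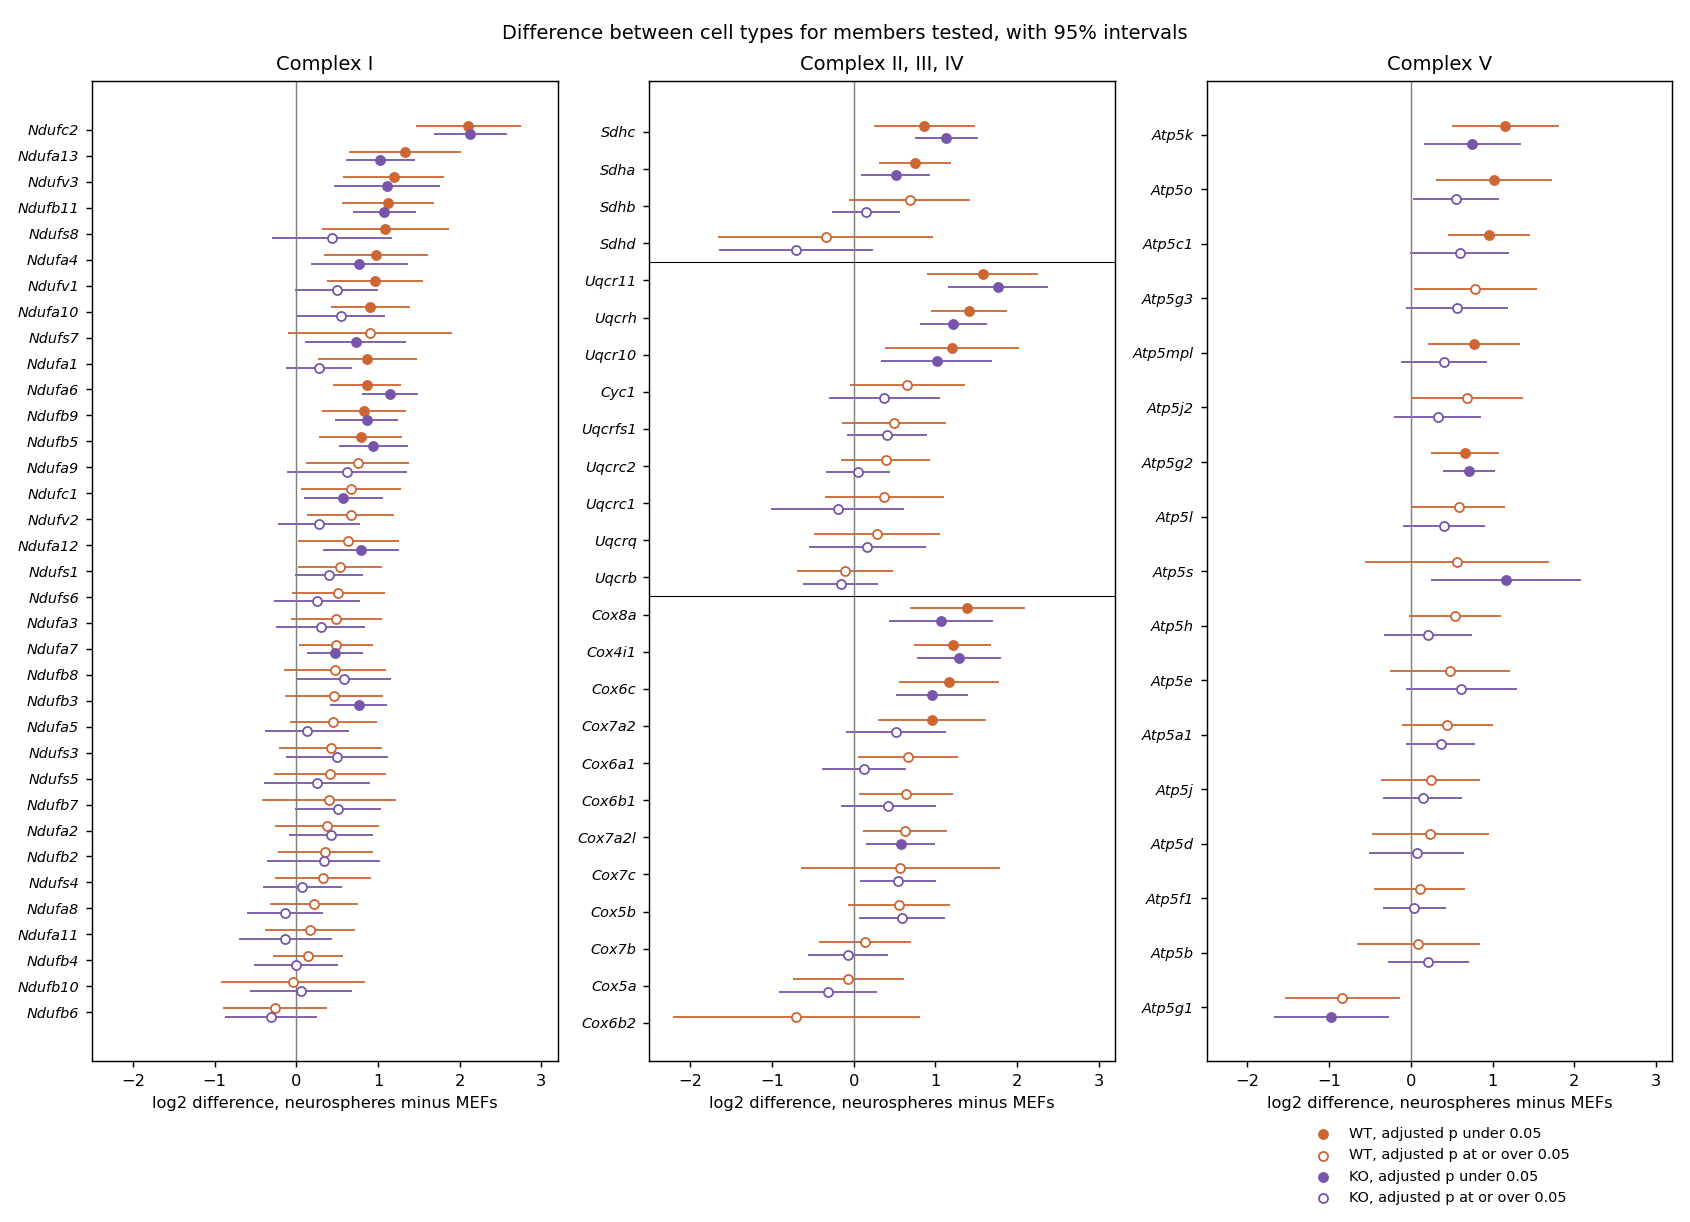
Difference between neurospheres and MEFs (horizontal axis, log2, neurospheres minus MEFs) for the members drawn (vertical axis, ordered within its complex), in WT cells (orange) and KO cells (purple). Horizontal bars are 95% intervals from edgeR and filled points passed an adjusted p of 0.05; nearly all points lie right of 0, Ndufc2 lies farthest to the right and Atp5g1 farthest to the left (Cox8b and Cox6a2, which are near 0 in MEFs, and 1 member not reported here are not drawn).

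Both genotypes called 18 members higher, which is 64.3% of the WT calls and 69.2% of the KO calls. These were Ndufa4, Ndufa6, Ndufa13, Ndufb5, Ndufb9, Ndufb11, Ndufc2, Ndufv3, Sdha, Sdhc, Uqcr10, Uqcr11, Uqcrh, Cox4i1, Cox6c, Cox8a, Atp5g2 and Atp5k. Across the 77 members tested in both genotypes the WT and KO log2 differences had a Pearson correlation of 0.89 and a Spearman correlation of 0.81, beside 0.96 and 0.93 across all 10863 genes tested in both. These are correlations across genes, which are not independent replicates and share libraries within each genotype. In a direct count of lines, all 6 neurosphere lines lay above all 8 MEF lines for 18 of 80 members (22.5%, background 18.2% of 12117 genes) and below them for 0 (background 18.6%). Cox8b, at 0 in all MEF lines, is counted among the members above. It passed the filter on low counts only through the neurosphere lines, so its separation could hardly have gone the other way.

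In complex I, the NADH dehydrogenase, 12 of 36 members tested were called higher in WT and 14 of 36 in KO neurospheres (33.3% and 38.9%, background 20.8% and 25.4%), and none was called lower. Ndufa4, called in both genotypes, is counted here by its name. Ndufc2 had the largest WT difference of the 18 members called in both genotypes. This accessory subunit of the membrane arm, at chr7:97400003-97407802 (+ strand, GRCm38), was also the complex I gene with the most counts. Its level was 146, 157 and 169 CPM in WT MEFs, 149, 153, 118, 145 and 141 CPM in KO MEFs, 483, 593 and 925 CPM in WT neurospheres, and 444, 604 and 783 CPM in KO neurospheres. The lowest neurosphere line was thus above the highest MEF line by a wide margin. The difference was 4.30-fold in WT (log2 2.10 ± 0.28 SE, edgeR adjusted p = 0.00104) and 4.37-fold in KO cells (log2 2.13 ± 0.20 SE, edgeR adjusted p = 2.76e-05).

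Ndufa13, an accessory subunit also known as GRIM-19, was 29.0, 39.9 and 46.1 CPM in WT MEFs and 68.5, 94.8 and 122 CPM in WT neurospheres. In KO cells it ranged from 28.7 to 44.8 CPM in MEFs and from 69.1 to 80.8 CPM in neurospheres. No line of one cell type entered the range of the other, and the difference was 2.51-fold in WT (edgeR adjusted p = 0.00918) and 2.04-fold in KO cells (edgeR adjusted p = 0.00154). Ndufb11, an X-linked membrane-arm subunit, ranged from 46.4 to 73.0 CPM in WT MEFs, 45.8 to 66.6 CPM in KO MEFs, 116 to 154 CPM in WT and 102 to 115 CPM in KO neurospheres. Its difference was 2.17-fold in WT and 2.11-fold in KO cells (edgeR adjusted p = 0.0084 and 0.000641). Ndufa6, an LYR-motif subunit of the peripheral arm, was 1.83-fold higher in WT and 2.22-fold higher in KO neurospheres (edgeR adjusted p = 0.00673 and 0.000225). Ndufv3, a small subunit of the NADH-oxidising module, was 2.28-fold and 2.16-fold higher (edgeR adjusted p = 0.00945 and 0.01).

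The core subunits of complex I, which carry the flavin and the iron-sulfur clusters, were counted apart from the accessory ones, and the difference between these groups was not tested. Of the 7 nuclear core subunits, 2 were called higher in WT neurospheres (Ndufv1, log2 0.96, and Ndufs8, log2 1.09) and 2 in KO neurospheres, among them Ndufs7 (log2 0.73). All 7 had positive differences in both genotypes, with medians of 0.66 in WT and 0.50 in KO cells. Among 29 accessory genes tested, 10 were called in WT and 12 in KO cells (background 20.8% and 25.4%), with medians of 0.49 and 0.51. Ndufa4 is counted among these by its name, in both genotypes as called. Ndufa4, which keeps a complex I name but is now assigned to complex IV, was 1.97-fold higher in WT and 1.71-fold higher in KO neurospheres (edgeR adjusted p = 0.0239 and 0.0337). Its paralog Ndufa4l2 had 1 count in the WT MEF group, 4 in the KO MEF group, 0 in the WT and 1 in the KO neurosphere group, too few to compare.

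Complex II, the succinate dehydrogenase, split between its subunits. Sdha, the flavoprotein subunit and the complex II gene with the most counts, was 130, 138 and 129 CPM in WT MEFs and 202, 201 and 254 CPM in WT neurospheres, and ranged from 120 to 159 CPM in KO MEFs and from 158 to 248 CPM in KO neurospheres. The WT groups did not overlap, whereas the lowest KO neurosphere line fell at the level of the highest KO MEF line. Sdha was 1.68-fold higher in WT and 1.43-fold higher in KO neurospheres (edgeR adjusted p = 0.0151 and 0.0445). Sdhc, a membrane anchor subunit, was 1.82-fold higher in WT and 2.19-fold higher in KO neurospheres (edgeR adjusted p = 0.0329 and 0.000492). Sdhb, the iron-sulfur subunit, and Sdhd, the other anchor, did not pass in either genotype. Sdhd had log2 differences of -0.34 ± 0.56 SE and -0.70 ± 0.42 SE, with lines between 9.81 and 51.1 CPM and overlapping cell types.

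In complex III, the cytochrome bc1 complex, the calls were 3 of 9 in each genotype (33.3%, background 20.8% and 25.4%), and all 3 were small subunits without redox centres. The other small subunits, Uqcrb (log2 -0.10 in WT and -0.16 in KO cells) and Uqcrq (0.29 and 0.17), did not pass. Uqcr11 (chr10:80402997-80406830, - strand, GRCm38) was 41.3, 36.3 and 66.8 CPM in WT MEFs, 44.5, 41.5, 28.7, 50.7 and 54.7 CPM in KO MEFs, 116, 148 and 162 CPM in WT neurospheres and 192, 90.2 and 164 CPM in KO neurospheres. It was 2.99-fold higher in WT and 3.41-fold higher in KO neurospheres (edgeR adjusted p = 0.00432 and 0.000566). Uqcrh, the hinge protein and the complex III gene with the most counts (chr4:116066965-116075071, - strand, GRCm38), was 130, 121 and 145 CPM in WT MEFs and 299, 348 and 393 CPM in WT neurospheres. In KO lines it ranged from 118 to 136 CPM in MEFs and from 217 to 366 CPM in neurospheres, which gave differences of 2.66-fold in WT and 2.33-fold in KO cells (edgeR adjusted p = 0.00137 and 0.00047).

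For both genes every neurosphere line lay above every MEF line. Uqcr10 was 2.30-fold and 2.03-fold higher (edgeR adjusted p = 0.0282 and 0.0181), but its lowest KO neurosphere line, at 65.5 CPM, lay inside the KO MEF range. None of the 4 larger subunits, Cyc1 (cytochrome c1), Uqcrfs1 (the Rieske iron-sulfur protein), Uqcrc1 and Uqcrc2 (the core proteins), passed in either genotype, with log2 differences from 0.38 to 0.66 in WT and from -0.19 to 0.41 in KO cells. Whether the small subunits differ from the larger ones was not tested.

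Complex IV, the cytochrome c oxidase, had 6 of 14 members called higher in WT and 4 of 11 in KO neurospheres (42.9% and 36.4%, background 20.8% and 25.4%). Cox8b and Cox6a2, counted among the 6, passed the filter on low counts only through the neurosphere lines. Cox4i1, the common isoform of subunit 4 (chr8:120668222-120674207, + strand, GRCm38), was 83.7, 78.8 and 100.3 CPM in WT MEFs, 109, 65.8, 53.9, 101 and 81.5 CPM in KO MEFs, 180, 193 and 227 CPM in WT neurospheres and 198, 213 and 188 CPM in KO neurospheres. The groups did not overlap, and the difference was 2.32-fold in WT and 2.45-fold in KO cells (edgeR adjusted p = 0.00287 and 0.00131). A same-strand gene that overlaps Cox4i1, Gm20388, could share its reads. Cox8a, the common isoform of subunit 8, was 165, 170 and 182 CPM in WT MEFs and 276, 430 and 628 CPM in WT neurospheres, a 2.62-fold difference (edgeR adjusted p = 0.00865). In KO cells it was 2.10-fold higher (edgeR adjusted p = 0.0107), although the lowest KO neurosphere line, at 206 CPM, lay under the highest KO MEF line, at 224 CPM. Cox6c, the complex IV gene with the most counts, was 2.25-fold and 1.94-fold higher (edgeR adjusted p = 0.01 and 0.00261).

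Of the complex IV isoforms, Cox8b was the clearest difference between the cell types. Cox8b (chr7:140898945-140900446, - strand, GRCm38) is known as the muscle isoform of subunit 8. It had 0 counts in all 8 MEF lines, which allows up to 0.350 CPM over the WT MEF group and 0.224 CPM over the KO MEF group if 3 counts per group are taken as the floor. In neurospheres it was 6.13, 31.8 and 29.9 CPM in WT and 29.7, 2.40 and 6.65 CPM in KO lines, so all 6 neurosphere lines had counts and the lines differed widely. The mean was at least 64.6-fold higher in WT and at least 57.8-fold higher in KO neurospheres than that floor, and Cox8b made up 4.53% ± 2.36 (SD, n = 3) of Cox8 counts in WT and 3.37% ± 3.78 (SD, n = 3) in KO neurospheres. In the WT fit it was called higher (edgeR adjusted p = 0.00491). It passed the filter there only through the neurosphere lines, so no other direction was open and the call adds nothing to these levels. Cox8b did not pass the filter on low counts in the KO fit.

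The muscle isoform Cox6a2 was 0, 1.80 and 1.22 CPM in WT MEFs, 0.377 to 1.73 CPM in KO MEFs, 3.83, 6.07 and 6.04 CPM in WT neurospheres and 0, 0.601 and 0 CPM in KO neurospheres. It was higher in WT neurospheres than in WT MEFs (5.03-fold, edgeR adjusted p = 0.0427). Like Cox8b, it passed the filter on low counts only through the neurosphere lines. Of the 16 WT settings that tested it, 7 called it higher, and it lost its call in 5 of the fits with 1 line left out. The WT neurosphere group held 40 counts and the KO neurosphere group 1 count. Cox7a1, the muscle and heart isoform of subunit 7a, was too low to be tested and was 1.91, 1.87 and 7.46 CPM in WT neurospheres against 0 to 1.98 CPM in all other lines. Of 8 muscle markers, 7 were at 0 in WT and 6 in KO neurospheres, and their summed level was at most 2.89 CPM there, beside 11.1 to 71.3 CPM in MEFs. Cox4i2, known from lung and low oxygen, had 1 count over all libraries, Cox7b2 had 2 counts and Cox8c had 0. Cox6b2, the testis isoform of subunit 6b, was between 0.700 and 8.63 CPM with overlapping cell types, and its common partner Cox6b1 did not pass in either genotype (log2 0.64 and 0.42). Cox6a1 (log2 0.67 and 0.12), Cox7b (0.14 and -0.07) and Cox5a (-0.07 and -0.31) did not pass either. Cox7a2 was called in WT cells alone (log2 0.96, edgeR adjusted p = 0.0296) and Cox7a2l, a supercomplex factor, in KO cells alone (log2 0.58, edgeR adjusted p = 0.0274). For these 2 genes the difference between genotypes did not pass the interaction test given further on.

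**Figure D3:**
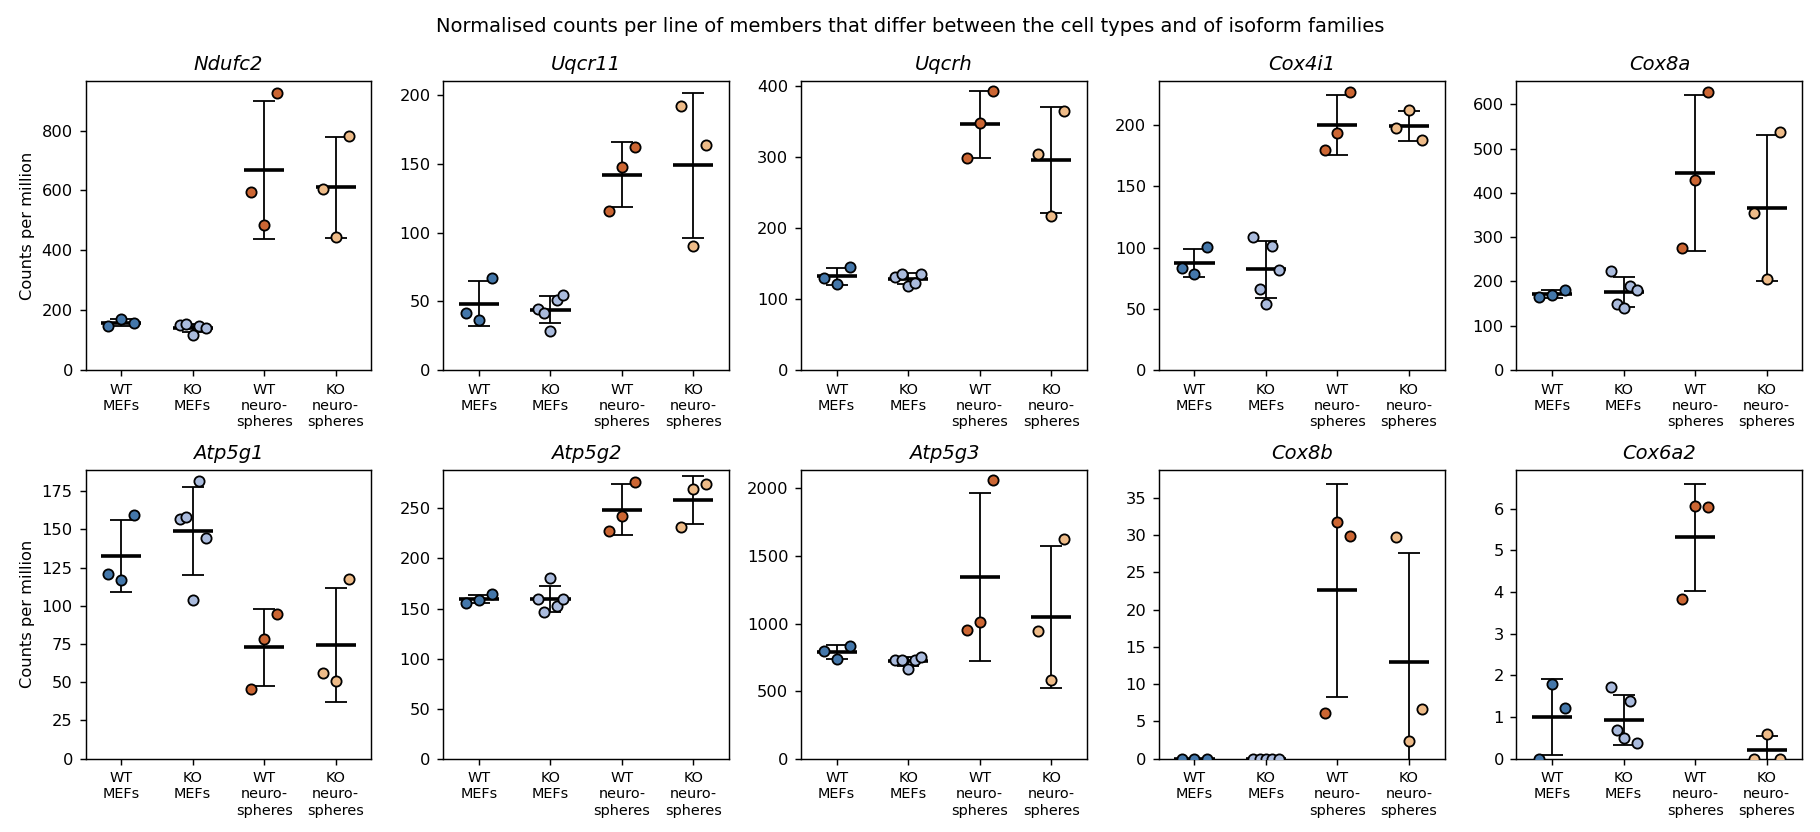
Normalised counts, CPM (vertical axis, starting at 0 and with its own scale in each panel) of 10 members in each line, by cell type and genotype (horizontal axis). Points are lines, thick bars are means and error bars are SDs; Ndufc2, Uqcr11, Uqcrh and Cox4i1 separate the cell types in every line, Atp5g1 runs opposite to Atp5g2, Cox8b is at 0 in all MEF lines and Cox6a2 is seen mainly in WT neurospheres.

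Counts of Cox7c, a small complex IV subunit, are uncertain because its coding sequence has a near-identical copy in the transcribed processed pseudogene Gm10012 on chromosome 17. The 192 bases from the start to the stop codon are given 5′ to 3′ for both, from the GENCODE M21 transcripts, to show how little separates them. Capitals mark the 2 mismatches, G30C and G107A, with the Cox7c base first and positions counted from 1 at the A of the start codon.
Cox7c: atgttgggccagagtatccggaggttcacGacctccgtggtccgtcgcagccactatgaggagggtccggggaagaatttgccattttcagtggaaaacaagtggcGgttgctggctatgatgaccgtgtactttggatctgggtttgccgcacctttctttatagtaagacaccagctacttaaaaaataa
Gm10012: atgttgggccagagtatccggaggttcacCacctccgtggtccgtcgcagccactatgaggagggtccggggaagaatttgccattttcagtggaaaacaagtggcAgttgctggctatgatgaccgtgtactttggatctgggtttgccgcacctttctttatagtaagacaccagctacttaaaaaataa
The 2 stretches were 99.0% identical. Cox7c was 181, 240 and 213 CPM in WT MEFs and 357, 92.9 and 479 CPM in WT neurospheres, so 1 WT neurosphere line (number 2) lay under all MEF lines. Gm10012 in that line was 670 CPM, and the Cox7c part of the pair was 12.2% there and 26.0% to 38.4% in the other 13 lines. With the counts of both added, the WT difference was log2 0.60 ± 0.25 SE (edgeR adjusted p = 0.0894), beside 0.57 ± 0.52 SE (edgeR adjusted p = 0.407) for Cox7c alone. In KO cells the sum gave log2 0.38 ± 0.20 SE (edgeR adjusted p = 0.137), beside 0.54 ± 0.21 SE (edgeR adjusted p = 0.052) for Cox7c alone. Neither scale passed the test. Adding the pair was chosen after its values had been seen.

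Complex V had 5 of 17 members called higher in WT and 3 of 17 in KO neurospheres (29.4% and 17.6%, background 20.8% and 25.4%), so its KO share lay below the background, and it held the 1 member called lower. The c ring, the rotor of the ATP synthase, is built of 1 protein that comes from 3 genes, Atp5g1, Atp5g2 and Atp5g3, which differ in the targeting peptide that is removed on import. Atp5g1 (chr11:96068852-96075670, - strand, GRCm38) was 121, 117 and 160 CPM in WT MEFs, 157, 158, 104, 182 and 144 CPM in KO MEFs, 45.6, 78.5 and 94.9 CPM in WT neurospheres and 55.8, 50.5 and 118 CPM in KO neurospheres. The WT groups did not overlap, and 1 KO neurosphere line lay above the lowest KO MEF line. Atp5g1 was lower in KO neurospheres (log2 -0.97 ± 0.31 SE, edgeR adjusted p = 0.0256), and in WT cells the difference missed the threshold (log2 -0.84 ± 0.30 SE, edgeR adjusted p = 0.0576). Over all the settings tried it was called lower in 12 of 19 for the KO and 7 of 17 for the WT comparison, with 1 fit repeated in each.

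Atp5g2 went the other way. It was 156, 159 and 164 CPM in WT MEFs, 147 to 181 CPM in KO MEFs, 227, 242 and 277 CPM in WT and 231, 270 and 274 CPM in KO neurospheres, so that no neurosphere line reached down to a MEF line. The difference was 1.58-fold in WT and 1.64-fold in KO cells (edgeR adjusted p = 0.0208 and 0.00255). Atp5g3, with the most counts of complex V, was 738 to 836 CPM in WT MEFs and 955, 1013 and 2061 CPM in WT neurospheres, and did not pass (log2 0.79, edgeR adjusted p = 0.0859, and log2 0.56, edgeR adjusted p = 0.119 in KO cells). As a share of the 3 genes' counts, Atp5g1 took 12.2% ± 1.4 (SD, n = 3) in WT MEFs, 14.4% ± 2.2 (SD, n = 5) in KO MEFs, 4.49% ± 1.20 (SD, n = 3) in WT and 5.32% ± 0.69 (SD, n = 3) in KO neurospheres. The highest neurosphere line had 5.87% and the lowest MEF line 11.0%, so on this within-family scale the cell types did not overlap in any line. Atp5g1 shares 31-base words with Itch, Ncbp3 and Tulp3, which were also counted, and whether its counts are shared with them was not tested.

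Among the other complex V members, Atp5k, subunit e of the membrane part, was 2.23-fold higher in WT and 1.68-fold higher in KO neurospheres (edgeR adjusted p = 0.0138 and 0.0375). Atp5c1, the gamma subunit of the central stalk, Atp5o (ENSMUSG00000022956.11), the oligomycin sensitivity protein of the peripheral stalk, and Atp5mpl, a small membrane subunit, were called in WT cells alone (log2 0.95, 1.02 and 0.77). Atp5s, named ATP synthase factor B, was called in KO cells alone (log2 1.16 ± 0.41 SE, edgeR adjusted p = 0.0372) at levels between 2.78 and 18.6 CPM. The catalytic beta subunit Atp5b (log2 0.09 and 0.21) and the alpha subunit Atp5a1 (0.45 and 0.36) passed in neither genotype. Of the 5 genes of the F1 head and central stalk, 1 was called higher in WT and 0 in KO cells (background 20.8% and 25.4%). Of 9 genes counted with the membrane part and peripheral stalk, 3 and 2 were. Atp5s, though named a factor, is counted among the 9 and is 1 of the 2 called in KO cells.

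Promoters of the members, called higher or not, were searched on both strands for 3 motifs often linked to respiratory chain genes. These were GCATGCGC, the core of the NRF1 motif, CCGGAAGT, bound by ETS factors such as GABP (NRF2), and AAGATGGC, the core of the YY1 motif. RefSeq promoters (GRCm38.p6, 250 bases before the start) matched 66 of the 85 member symbols. The NRF1 core stood in 8 of 66 (12.1%), beside 5.17% of the promoters of genes tested and 2.56% of all 27025 promoters. The ETS core stood in 3 (4.55%, beside 6.86% and 3.23%), and the YY1 core in 1 (1.52%, beside 2.39% and 1.83%). Of the members called higher in WT neurospheres, 3 of 22 with a promoter held the NRF1 core (13.6%), and of the other members 5 of 44 did (11.4%). A motif match is a description of the letters and not a binding site.

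The 150 bases before the RefSeq start are given 5′ to 3′ on the gene's strand for Ndufc2, the member with the largest WT difference among those called in both genotypes, which held none of the 3 motifs, and for the 4 members called in both genotypes that held a motif within 150 bases of a RefSeq start near the GENCODE start, with the motif in capitals. They are chr7:97399853-97400002, chr10:80406822-80406971, chr4:116075071-116075220, chr15:82354292-82354441 and chr5:108434400-108434549 in the order shown.
Ndufc2: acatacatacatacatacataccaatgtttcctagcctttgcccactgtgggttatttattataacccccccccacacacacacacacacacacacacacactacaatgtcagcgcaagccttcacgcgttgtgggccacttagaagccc
Uqcr11: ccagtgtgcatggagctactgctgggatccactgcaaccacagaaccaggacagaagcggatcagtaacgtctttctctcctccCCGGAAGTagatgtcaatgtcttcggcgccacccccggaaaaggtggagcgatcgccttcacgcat
Uqcrh: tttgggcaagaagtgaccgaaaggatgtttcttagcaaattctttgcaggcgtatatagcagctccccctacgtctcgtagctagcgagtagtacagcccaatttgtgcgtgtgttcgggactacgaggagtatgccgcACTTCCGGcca
Ndufa6: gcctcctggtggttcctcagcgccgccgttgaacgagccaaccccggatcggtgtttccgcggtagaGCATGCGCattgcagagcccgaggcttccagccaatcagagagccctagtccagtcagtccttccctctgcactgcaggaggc
Atp5k: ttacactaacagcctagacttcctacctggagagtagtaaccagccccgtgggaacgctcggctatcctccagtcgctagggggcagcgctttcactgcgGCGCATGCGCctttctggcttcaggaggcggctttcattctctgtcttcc
In Uqcr11 and Uqcrh the capitals are the ETS core, 66 and 11 bases before the start, the latter on the opposite strand. The fifth such member, Atp5g2, held the NRF1 core too but is not shown, since its RefSeq start lies 1305 bases from the GENCODE start. In Ndufa6 the capitals are the NRF1 core at 83 bases, and in Atp5k a stretch that holds the NRF1 core on both strands, overlapping, at 50 and 48 bases.

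The neurosphere lines differed from one another more than the MEF lines did. As the median over 78 members of the log2 difference from the mean of a line's cell type, WT neurosphere line 3 lay 0.44 above and KO neurosphere line 2 lay at -0.61. Line 3 of the WT neurospheres was the highest neurosphere line for 53 of the 78 members, and line 2 of the KO neurospheres was the lowest for 58. The MEF lines lay between -0.15 and 0.16. Over all 12117 genes the same median was between -0.01 and 0.01 in each line, and over 81 cytosolic ribosomal protein genes it was -0.21 and -0.23 in these 2 neurosphere lines. KO neurosphere line 2 also had the fewest counts, 1669893. The 2 lines were picked for these values. Without KO neurosphere line 2, 48 of 79 members were called higher (background 22.3%) and 0 lower in KO cells, in place of 26 and 1. Without WT neurosphere line 3, 18 of 80 were called higher (background 17.5%) and 1 lower in WT cells, in place of 28 and 0.

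**Figure D4:**
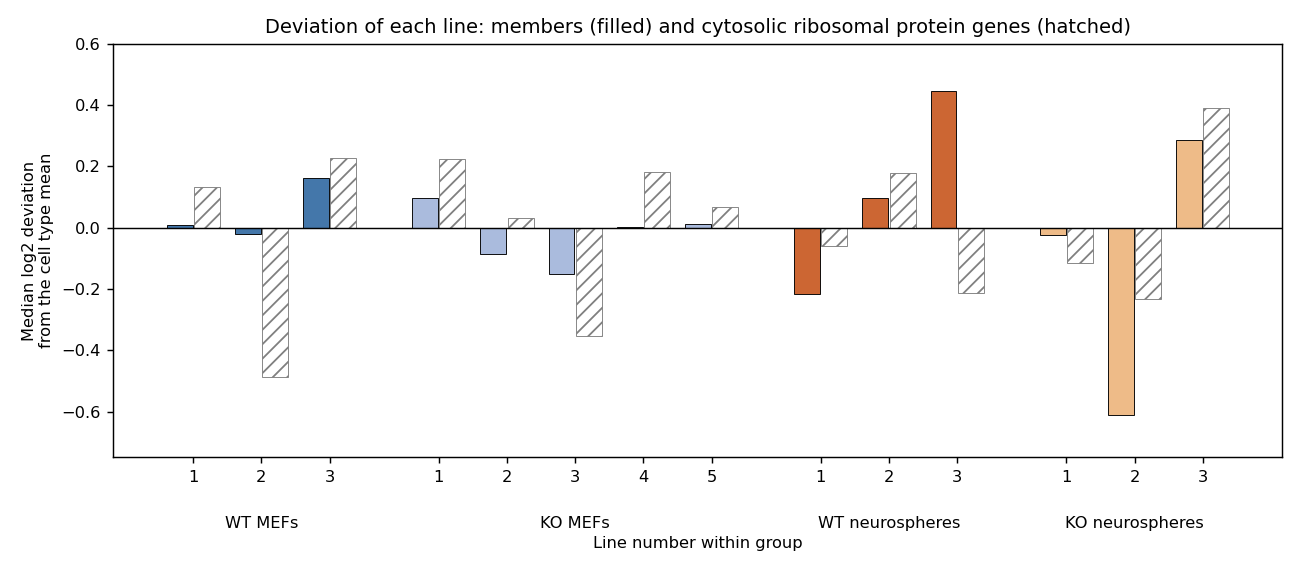
Median log2 deviation of each line from the mean of all lines of its cell type (vertical axis), over 78 members (filled bars) and 81 cytosolic ribosomal protein genes (hatched bars), for each line in its group (horizontal axis). WT neurosphere line 3 (0.44) and KO neurosphere line 2 (-0.61) lie farthest from 0 for the members, while the MEF lines stay between -0.15 and 0.16.

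In the remaining lines, calls also moved. Without WT MEF line 1, 12 of 80 members were called higher in WT cells (background 14.727%). Without WT MEF line 3, 14 of 80 members were (background 14.996%). In KO cells 17 of 78 members were called higher without KO neurosphere line 1 (background 20.555%). The members' share in each of these fits lay only a little above the background. The members called higher in every one of the 17 settings tried for the WT comparison numbered 12, and those in every one of the 19 for the KO comparison 9. Among the 12 was Cox8b, which passed the filter on low counts only through the neurosphere lines. How many of all genes were called in every setting was not counted, so these numbers have no background. Within 1 genotype, leaving out the pair of neurosphere lines repeats the fit without its own line, so 1 fit is repeated in each. Common to both were 7 members: Cox4i1, Ndufa6, Ndufa13, Ndufb11, Ndufc2, Uqcr11 and Uqcrh.

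Loss of H3f3a was then assessed within each cell type. In MEFs 0 of 78 members were called by edgeR between KO and WT (background 0.00927% of 10789 genes), 0 had an unadjusted p under 0.05 (background 1.62%), and DESeq2 and limma on TPM values called 0 as well. The 4 members with the smallest p were Ndufb5 (log2 -0.30, 95% interval -0.64 to 0.05), Cox6b2 (log2 -0.89, -1.96 to 0.18), Atp5j (log2 -0.25, -0.56 to 0.05) and Uqcrb (log2 -0.19, -0.42 to 0.04), each with an edgeR adjusted p that rounds to 1.0. Ndufb5 was 85.3, 87.0 and 86.6 CPM in WT and 74.9, 52.8, 74.3, 73.6 and 77.0 CPM in KO MEFs. Uqcrb was 242, 228 and 215 CPM in WT and 205, 196, 204, 197 and 200 CPM in KO MEFs. For both, all KO lines lay under all WT lines, as they did for Cox6b2 and Cox6c, and for Ndufv1 all KO lines lay above; such separation held for 5 of 78 members (1 higher, background 0.918%, and 4 lower, background 0.936%, 1.85% in all). Of the 78 members 29 had a positive difference (background 49.8%). The median log2 difference of the members was -0.05, and it was 0.02 without WT MEF line 3.

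In neurospheres 0 of 78 members were called by edgeR between KO and WT (background 0.00941% of 10628 genes), 0 had an unadjusted p under 0.05 (background 2.14%), and DESeq2 and limma on TPM values called 0. The smallest p belonged to Ndufa1, an X-linked complex I subunit, which was 149, 124 and 229 CPM in WT and 134, 92.6 and 120 CPM in KO lines (log2 -0.52, 95% interval -1.17 to 0.12). Atp5j2 (log2 -0.56, -1.40 to 0.29), Cox6a1 (log2 -0.50, -1.30 to 0.30) and Ndufa5 (log2 -0.42, -1.10 to 0.26) followed. The groups overlapped for all 4, and KO lay apart from WT only for Ndufb11, which was lower, with 0 members higher (background 3.87% and 3.34%, 7.21% in all). Of the 78 members 16 had a positive log2 difference (background 51.3%) and 62 a negative one, with a median of -0.21, beside 0.01 over all genes tested. The size and direction of that median depended on the lines: it was -0.41, with 67 of 78 members negative, without the 4 lines set apart earlier, -0.44 without KO neurosphere line 3 and -0.37 without WT neurosphere line 1. It was 0.01 without WT neurosphere line 3, 0.02 without KO neurosphere line 2 and 0.18 without both, when 66 of 78 members were positive. These last 2 lines were picked as the highest WT and the lowest KO line, so leaving them out had to raise the difference.

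The interaction asks whether the difference between the cell types depended on the genotype. By edgeR 0 of 80 members were called (background 0% of 12117 genes), 1 had an unadjusted p under 0.05 (background 3.02%), and DESeq2 and limma on TPM values called 0. That 1 was Cox6a2 (log2 -4.65, 95% interval -7.83 to -1.47), the low-count gene seen in WT neurospheres, and its adjusted p rounds to 1.0. Cox6a2 passed the filter on low counts only through the WT neurosphere lines, so a positive value was hardly open to it. Ndufa1 (log2 -0.59), Sdhb (-0.53) and Cox6a1 (-0.53) followed. The comparisons within cell types use the same libraries as the interaction. Of the 80 members 20 had a positive value (background 51.0%). The median log2 interaction of the members was -0.16. It was -0.37, with 70 of 80 members negative, both without the 4 lines set apart earlier and (70 of 80) without KO neurosphere line 3, and 0.20 without WT neurosphere line 3 and KO neurosphere line 2, a pair whose choice had to raise it.

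Other genes of the pathway were counted in the same way, and no test compared these lists with the subunits. The background for these counts was 20.8% called higher and 20.8% lower in WT, and 25.4% and 26.1% in KO cells. Of 48 assembly factors tested, 2 were called higher and 7 lower in WT neurospheres, and 7 and 8 in KO neurospheres, with medians of -0.09 and -0.10. Cox14 and Cox20, which act early in complex IV assembly, were higher in both genotypes (log2 1.04 and 1.35, and 0.92 and 0.92). Cox18, which inserts a complex IV subunit into the inner membrane, and Tmem70, an ATP synthase assembly factor, were lower (log2 -2.27 and -2.51, and -1.53 and -1.48). Of the 13 mRNAs of the mitochondrial genome, 12 were called higher in WT and 13 in KO neurospheres, with medians of 1.21 and 1.38. The 1 that missed the threshold in WT cells was mt-Nd6 (log2 0.51), the lowest of the 13 in both genotypes (0.77 in KO cells), and mt-Nd2 was among the highest (2.02 and 1.87).

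Of 16 genes of the citric acid cycle and pyruvate dehydrogenase, 3 were higher and 0 lower in WT and 3 higher and 1 lower in KO neurospheres. For the lists of this paragraph too the background was 20.8% each way in WT, and 25.4% higher and 26.1% lower in KO cells. Idh3g, a subunit of isocitrate dehydrogenase, was higher in both genotypes (log2 1.79 and 1.42). Electron carriers and their synthesis genes split, 3 higher and 1 lower of 13 in WT and 4 and 2 of 14 in KO cells, with Coq7, of ubiquinone synthesis, higher (log2 1.60 and 1.14) and Coq10b lower (log2 -1.97 and -1.80). The import and chaperone genes were called 0 higher and 4 lower of 13 in WT and 1 and 5 in KO cells, among them Hspd1 (log2 -1.43 and -1.20) and Timm23 (-1.32 and -1.23).

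Of the regulators of respiratory chain genes, 1 was higher and 2 were lower of 12 tested in WT cells, and 1 and 3 of 13 in KO cells (background 20.8% each way in WT, and 25.4% higher and 26.1% lower in KO cells). Ppargc1a, which encodes the coactivator PGC-1alpha, was 0 to 1.59 CPM in MEFs, 121 to 224 CPM in WT and 115 to 150 CPM in KO neurospheres (edgeR adjusted p = 0.000295 and 6.39e-07). Ppargc1a was the 1 regulator called higher in each genotype. Like Cox8b, it passed the filter on low counts only through the neurosphere lines, so its calls add nothing to these levels. Its relative Pprc1 was lower (log2 -2.36 and -2.03), and so was Yy1 (log2 -0.53 and -0.48). Nrf1 (log2 0.44 and 0.19), Gabpa (-0.21 and -0.12) and Tfam (-0.14 and 0.08) did not pass. In the list of hypoxia response genes, beside the same background, 0 were higher and 2 lower of 7 in WT and 1 and 4 in KO cells. Slc2a1, a glucose transporter, and Ldha, of lactate formation, were lower in both genotypes (log2 -2.44 and -2.51, and -1.33 and -1.95). No gene of any of these 6 nuclear lists was called between KO and WT lines in either cell type, nor was a mitochondrially encoded one (background 0.00927% in MEFs and 0.00941% in neurospheres).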

How the data were processed

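RNA was measured in 14 QuantSeq 3′ FWD libraries, 1 per cell line. Expected counts and TPM values per transcript were deposited by the authors as Salmon output, per the file headers; the submitters' processing notes name Salmon 1.1.0 and edgeR. Which transcript set, genome build and trimming were used is not given in the sources used here. TPM divides by transcript length, which a 3′ library does not need, so counts were the main scale.

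Each file listed 116945 transcripts. Of these 115638 matched GENCODE M21 (GRCm38) by ID, version and length and 385 by ID alone, and 922, with 0.239% to 0.400% of reads, were left out. Counts were summed per gene, rounded to whole numbers, filtered with filterByExpr, scaled by TMM and tested with edgeR 4.0.16 (glmQLFit, robust) in R 4.3.3 over all genes, at an adjusted p of 0.05 (Benjamini-Hochberg). CPM are on TMM-scaled library sizes and shares of counts on unscaled ones. DESeq2 1.42.0, limma 3.58.1 on log2(TPM + 1) and the settings in the closing section were alternatives. The procedure was tested on simulated data.

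Members named in detail were the 10 members with the largest WT difference called in both genotypes, the isoform families, the 4 members with the smallest p in each knockout comparison and the member with the most counts in each complex; others are named to complete a count or a role. The members and lists were chosen with earlier results of these data known. Floors of 3 counts and intervals of 95% cover, for the floors, counting error only, and p-values measure the spread between lines. Parent embryos are not named, so lines may share one. Values of 2 genes are not reported here.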

Additional observations from a re-analysis of the deposited data

Results flagged for a closer look

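In KO MEFs, the 1 group with more than 3 lines, 5 of 43 quantities checked had a line far from the other 4 by Dixon's criterion, where chance gives about 1 in 20. Atp5g3 was 662 CPM in KO MEF line 3 and 728 to 752 CPM in the others. Cox6b1 was 93.8 CPM in line 3 and 129 to 141 CPM in the others. The mitochondrially encoded complex I mRNAs took 2.93% of counts in line 3 and 3.12% to 3.14% in the others. Cox6b2 was 1.04 CPM in line 4 and 3.40 to 4.15 CPM in the others. Ndufb5 was 52.8 CPM in line 2 and 73.6 to 77.0 CPM in the others.

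Ndufb1-ps, a gene annotated as a pseudogene and so outside the choice of protein-coding genes, was the 1 of 12 such symbols with counts. It was 225, 250 and 220 CPM in WT MEFs, 231, 199, 273, 198 and 205 CPM in KO MEFs, 168, 208 and 305 CPM in WT neurospheres and 218, 147 and 245 CPM in KO neurospheres. These levels are in the range of the expressed members, and the cell types overlapped (log2 -0.01, edgeR adjusted p = 0.979 in WT, and log2 -0.10, adjusted p = 0.693 in KO cells).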

How the results depend on the processing

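In WT cells the count of members called higher in neurospheres, 28, stayed within 1.5 times under every planned setting that kept all lines (background 12.9% to 22.3%). There 1 member was called lower, in place of 0, with DESeq2, with no filter on low counts, with all 14 libraries in 1 fit and with the replicate number as a block. In KO cells limma on TPM called 16 of 77 members higher (background 21.25%) and 0 lower, in place of 26 and 1. The replicate block called 9 of 77 higher (background 14.03%) and 0 lower. Under both of these settings the share of KO members called higher lay below the background. Same-numbered lines had correlations of their deviations between -0.60 and 0.23, which does not establish a pairing, and the labels name none. Without the 4 lines set apart earlier, KO cells had 3 called lower. Without WT neurosphere line 3 and KO neurosphere line 2, a choice made after seeing the data, 18 were called higher (background 17.5%) and 1 lower in WT cells. In KO cells 48 were then called higher (background 22.3%) and 0 lower.

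With 1 line left out at a time, WT cells had 12 to 31 called higher (background 14.7% to 22.5%) and 0 to 1 lower. KO cells had 17 to 48 called higher (background 20.6% to 28.1%) and 0 to 2 lower. Over the same fits Cox7b ranged from log2 -0.043 to 0.31 in WT and from -0.30 to 0.19 in KO cells, and Cox6a1 from -0.060 to 0.41 in KO cells.

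Several members that had missed the threshold changed sign under some setting, among them Atp5b (log2 -0.31 to 0.28 over the WT fits), Cox5a (-0.37 to 0.14), Sdhd (-0.94 to 0.25) and, in KO cells, Uqcrc1 (-0.66 to 0.16). Of the isoform families and the members named in the knockout comparisons, these were Cox7b in WT cells on TPM (-0.039) and without the pair of neurosphere lines (-0.043), and in KO cells without that pair (0.19). Without the 4 lines Cox6b2 was 0.063 in WT cells, and Cox6a1 was -0.045 and Cox6b1 -0.0080 in KO cells. Cox6a1 was -0.090 on TPM in KO cells, and without the pair it was 0.085 between KO and WT neurospheres and 0.046 in the interaction. Cox7c with Gm10012 added was 0.0094 between KO and WT MEFs. The causes were not tested. With 3 lines in most groups and 1669893 to 3296519 counts per library, members at a few CPM, such as Cox6a2, Cox7a1 and Cox6b2, are the least precise.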
